A study of Danio rerio with 24 samples.

Results

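The genes slc23a1 (ENSDARG00000015033) and slc23a2 (ENSDARG00000017365) encode the sodium-dependent vitamin C transporters. They were followed in livers of larval zebrafish, as 2 of the 32520 genes of a table of RNA-seq read counts. slc23a1 was chosen because its counts were higher in livers with hepatocyte overexpression of miR-21 on both diets, so that difference is described here without a test. slc23a2 was taken along as the other vitamin C transporter of the family, and its own values did not choose it. Each ID was the only row of its symbol, and both passed the filter of at least 10 counts over the fitted libraries.

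The study asked how a high-cholesterol diet and miR-21 in hepatocytes, alone and together, alter the liver transcriptome. Groups were miR-21OE-HCD and miR-21OE-NCD, with 3 libraries each, and WT-HCD and WT-NCD, with 9 libraries each. The miR-21OE larvae carried Tg(fabp10a:Dendra2miR-21OE;cryaa:mCherry), in which the hepatocyte promoter of fabp10a drives the fluorescent protein Dendra2 together with miR-21, and a lens promoter drives mCherry. WT larvae lacked the transgene, so effects of Dendra2 or of the insertion cannot be told apart from those of miR-21. Feeding on a normal control diet (NCD), or on the same diet with 10% added cholesterol (HCD), began at 6 days post fertilization (dpf), and livers were taken at 13 dpf. Each library pooled 13 livers from siblings of a single clutch. The labels give 9 batches. Batches 1 to 6 hold WT livers only, and batches 7 to 9 hold all 4 groups, with miR-21OE libraries 1, 2 and 3 in batches 7, 8 and 9 and WT libraries numbered as their batch. The study calls the WT larvae siblings of the miR-21OE larvae in its experiment with all 4 groups. For the added WT samples of batches 1 to 6 it does not say so.

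Vitamin C, or ascorbate, enters cells against its gradient through the SLC23 proteins, which couple it to sodium. In mammals SLC23A1 (also called SVCT1) sits mainly in epithelia that absorb or recover the vitamin, in intestine and kidney, and in hepatocytes, whereas SLC23A2 (SVCT2) serves most other cells. Teleost fish, like humans, lack the last enzyme of ascorbate synthesis and depend on the diet for it. The oxidized form, dehydroascorbate, travels through glucose transporters and is reduced again inside the cell. Ascorbate keeps the iron of dioxygenases reduced, among them the prolyl and lysyl hydroxylases of collagen, the oxygen sensors of the EGLN family, the TET enzymes that oxidize methylated DNA and BBOX1 of carnitine synthesis.

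Depth ranged from 16942574 to 36641566 counts per library. Levels are given as CPM, the read count of a gene relative to the scaled size of its library, with scaling by TMM (trimmed mean of M-values) over all 24 libraries, and mean ± SD over libraries. Hepatocyte markers (fabp10a, transferrin, fibrinogen and others) were all detected in every library, 9 of 9, with a summed level of 12200 to 85798 CPM. The lens gene CRYAA, whose promoter drives the eye marker of the transgene, was counted 7 to 25 times in each of 6 miR-21OE pools and at most 1 time in each of 18 WT pools. The precursor MIR21 (ENSDARG00000082187) had 117 to 210 counts in miR-21OE livers, against 12 to 249 in WT livers, where the highest came from WT-HCD 1. In batches 7, 8 and 9 it had 6.10, 5.99 and 10.3 CPM in miR-21OE-NCD, against 2.33, 1.42 and 0.512 CPM in WT-NCD. In miR-21OE-HCD it had 6.87, 5.34 and 7.24 CPM, against 5.38, 1.58 and 1.74 CPM in WT-HCD of these batches. Genes of exocrine pancreas were present in all libraries, and their sum was highest in miR-21OE-NCD 3 (51678 CPM), WT-HCD 2 (32035 CPM) and WT-NCD 1 (27609 CPM). In 4 libraries, intestinal markers stood out. Villin (VIL1) of the intestinal brush border reached 30.1 CPM in miR-21OE-NCD 3, and 171, 33.2 and 37.3 CPM in WT-HCD 2, 4 and 6. In the remaining 20 libraries it did not exceed 10.7 CPM. The difference of slc23a1 between genotypes on NCD and its diet difference in WT livers are given with and without them. Correlations and the estimates of most single list genes are given with all libraries only. In pooled tissue, fewer cells of a type and less RNA per cell cannot be told apart.

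slc23a1 had 15.3, 25.4 and 21.1 CPM in the 3 miR-21OE-HCD libraries. In miR-21OE-NCD it had 15.6, 17.2 and 15.4 CPM. The WT-HCD livers of the same batches had 2.63, 2.90 and 4.64 CPM, and the WT-NCD livers had 2.37, 3.17 and 3.37 CPM. Every miR-21OE library thus lay above every WT library of its batches, and the groups did not overlap on either diet. The lowest of the 6 miR-21OE values, 15.3 CPM, also lay above the highest of all 18 WT values, 12.8 CPM in WT-HCD 2. This gap to all WT libraries depended on the scaling. By library totals without a scaling factor, WT-HCD 2 had 17.6 CPM. That lay above miR-21OE-NCD 1, 2 and 3 (13.4, 15.1 and 13.7 CPM) and miR-21OE-HCD 1 (14.3 CPM). It lay below miR-21OE-HCD 2 and 3 (24.6 and 18.3 CPM). The WT libraries of batches 7 to 9 reached at most 4.46 CPM by library totals, still without overlap. In raw counts, the gene had 300 to 724 in miR-21OE livers, against 29 to 361 in WT livers. Of 21660 genes tested, 5.35% were without overlap in this direction on NCD and 6.13% on HCD. Since slc23a1 was picked from these contrasts, nothing is read from those shares.

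**Figure D1:**
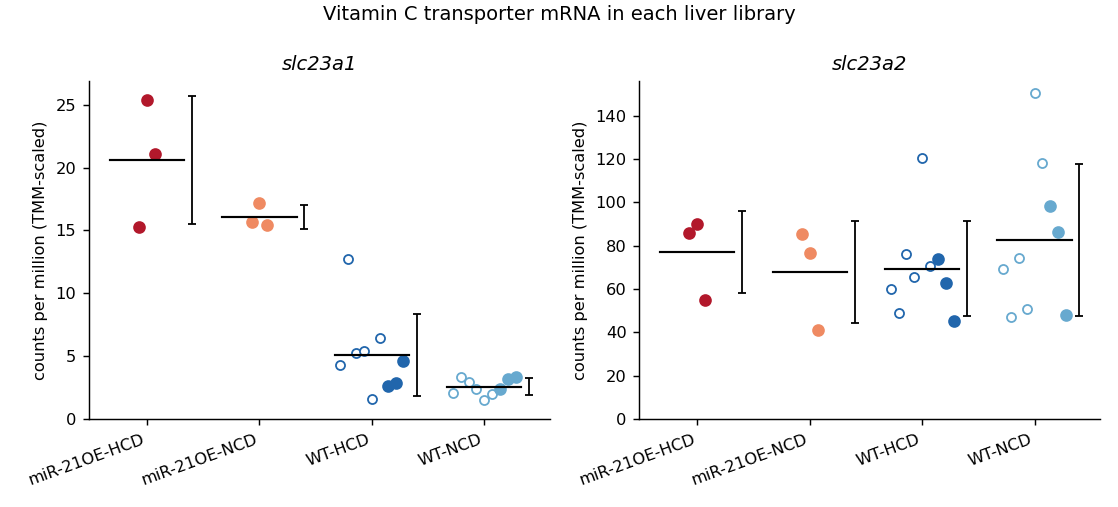
Level of slc23a1 (left) and slc23a2 (right) in CPM, TMM-scaled over 24 libraries, by group. Filled points are libraries of batches 7 to 9, open points are batches 1 to 6, horizontal lines are group means and the bars beside them are SD over libraries. For slc23a1 all 6 miR-21OE libraries lie at or above 15.3 CPM and all 18 WT libraries at or below 12.8 CPM. For slc23a2 the 4 groups overlap. The gap of slc23a1 depends on the scaling. By library totals WT-HCD 2 has 17.6 CPM, inside the miR-21OE range of 13.4 to 24.6 CPM.

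The mean level was 20.6 ± 5.09 CPM in miR-21OE-HCD and 16.1 ± 0.973 CPM in miR-21OE-NCD (SD, n = 3 each), against 3.39 ± 1.09 CPM in WT-HCD and 2.97 ± 0.530 CPM in WT-NCD of batches 7 to 9 (n = 3 each). On the log2 scale the fitted difference was 2.57 (SE 0.30) on HCD and 2.43 (SE 0.30) on NCD. Within batches 7, 8 and 9, the fold of miR-21OE-HCD over WT-HCD was 5.80, 8.76 and 4.54. That of miR-21OE-NCD over WT-NCD was 6.60, 5.42 and 4.57. The difference thus lay between 4.54-fold and 8.76-fold in all 6 pairs. Leaving out any 1 of the 12 libraries moved the log2 difference between 2.38 and 2.88 on HCD and between 2.27 and 2.53 on NCD. Without miR-21OE-NCD 3, the library with the most pancreatic RNA, it was 2.44 on NCD.

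Intestinal markers were measured too, because absorptive epithelia also transcribe SLC23A1 in mammals. VIL1 had a median of 2.33 CPM in the 6 miR-21OE libraries, against 2.49 CPM in the 6 WT libraries of batches 7 to 9. The peptide transporter SLC15A1 (ENSDARG00000044528) had medians of 1.27 and 1.83 CPM, in the same order. The intestinal transcription factor cdx1b had 0.295 and 0.122 CPM, and the fatty acid binding protein FABP2 had 20.9 and 15.1 CPM. Of 13 intestinal marker IDs, 10 to 12 were detected per miR-21OE library and 9 to 13 per WT library of batches 7 to 9. Their summed level was 324 to 1822 CPM in miR-21OE-HCD, 389 to 2038 CPM in miR-21OE-NCD, 239 to 2134 CPM in WT-HCD and 1014 to 2775 CPM in WT-NCD. Most of this sum came from apoa4b.1, an apolipoprotein gene that the liver also expresses. Without apoa4b.1 the sums were 50.3 to 57.1 CPM in miR-21OE-HCD, 42.9 to 178 CPM in miR-21OE-NCD, 32.96 to 57.9 CPM in WT-HCD and 27.2 to 68.5 CPM in WT-NCD. The value of 178 CPM was that of miR-21OE-NCD 3, whose slc23a1 level (15.4 CPM) was the lowest of its group. In the other 5 miR-21OE libraries slc23a1 was high with this sum between 42.9 and 61.0 CPM, inside the WT range of 27.2 to 68.5 CPM. Of 16 kidney tubule IDs, 10 to 12 were detected per library in miR-21OE-HCD, 12 to 14 in miR-21OE-NCD, 11 to 13 in WT-HCD of batches 7 to 9 and 13 or 14 in WT-NCD of those batches. Their sums, in the same order of groups, were 281 to 379, 222 to 475, 293 to 386 and 443 to 713 CPM, most of it from the phosphate transporter SLC20A1 (ENSDARG00000010641), with a median of 313 CPM. The rest of this list was mixed. In it, umod was at 0 in all 24 libraries, SLC12A1 at 0 in 18 and SLC12A3 at 0 in 19. The PAX2 IDs were at 0 in 10 and 14 libraries, and the SLC34A1 IDs in 6 and 2. LRP2 (3.23 to 23.2 CPM), CUBN (0.205 to 6.74 CPM) and SLC5A12 (0.032 to 3.03 CPM) were counted in every library. So were CDH17, SLC5A1 and the SLC4A4 IDs. The part of these cell types in the level of slc23a1 was not tested.

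The diet difference of slc23a1 was tested, since the gene had not been chosen on that contrast. The WT values of batches 7 to 9 had entered the choice, however. Tests that include those batches are therefore not independent of it, and only batches 1 to 6 are. In WT livers the level was higher on HCD in 8 of 9 batches. The WT-HCD libraries of batches 1 to 9 had 4.26, 12.8, 5.21, 5.38, 1.598, 6.43, 2.63, 2.90 and 4.64 CPM. Their WT-NCD partners had 2.05, 3.31, 2.94, 2.41, 1.51, 1.96, 2.37, 3.17 and 3.37 CPM. Only batch 8 ran the other way, and the groups overlapped, with means of 5.09 ± 3.25 CPM in WT-HCD and 2.57 ± 0.662 CPM in WT-NCD (SD, n = 9 each). By library totals without a scaling factor the log2 ratio of batch 8 was 0.025, so the count of batches depended on the scaling. The mean log2 ratio within batches was 0.81 ± 0.73 (SD, n = 9), or 1.75-fold, with p = 0.0117 in an exact sign-flip permutation test (two-sided). In the 6 batches that had no part in the choice of the gene, WT-HCD exceeded WT-NCD in 6 of 6, by 2.19-fold on average (exact p = 0.03125, the smallest that 6 pairs allow). Of 23420 genes tested, 6.96% were likewise higher in all 6. These batches include 2, 4 and 6, whose WT-HCD libraries had raised intestinal markers. There the fold was 3.86, 2.23 and 3.27, against 2.07, 1.77 and 1.06 in batches 1, 3 and 5.

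Across all genes the call depended on whether the batch was in the model. Without a batch term the log2 difference was 0.99 (SE 0.31), which did not pass after adjustment (edgeR quasi-likelihood test, unadjusted p = 0.00441, Benjamini-Hochberg adjusted p = 0.121). In this test 1.15% of 23934 genes passed. With the batch as a block the difference was 0.82 (SE 0.22) and passed (adjusted p = 0.0434), as did 7.47% of the genes. With the block, leaving out batch 1, 2, 3, 4, 6 or 7 raised the adjusted p to between 0.0508 and 0.103, and leaving out batch 5, 8 or 9 did not end the call. Without any scaling factor the difference was 1.45 and passed (adjusted p = 0.0486), as did 3.65% of the genes, but there the median of all genes shifted by 0.38. DESeq2 gave an adjusted p of 0.0523, with 4.11% of the genes called.

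In WT livers the highest slc23a1 levels stood in the libraries with the highest intestinal markers. The libraries WT-HCD 2 and WT-HCD 6 had the highest slc23a1 levels of all WT livers, 12.8 and 6.43 CPM. They also had VIL1 at 171 and 37.3 CPM, SLC15A1 (ENSDARG00000044528) at 110 and 181 CPM and cdx1b at 9.82 and 18.3 CPM. The rest of the marker list was mixed. ANPEP (ENSDARG00000103878) had 59.7 and 55.0 CPM and mep1a.1 had 7.98 and 4.12 CPM, in the same order. FABP2 had 60.2 and 11.7 CPM, where the other 16 WT libraries reached 22.7 CPM. ANPEP (ENSDARG00000097285) had 44.5 and 18.8 CPM, and sst2 had 9.75 and 0 CPM. WT-HCD 4 came next in SLC15A1, with 25.0 CPM, and had 5.38 CPM of slc23a1. Without apoa4b.1 the intestinal sum was 136 to 513 CPM in these 3 libraries, against 30.9 to 57.9 CPM in the other 6 WT-HCD libraries and 26.3 to 87.6 CPM in the 9 WT-NCD libraries. With apoa4b.1 the sum was lower on HCD in 9 of 9 batches, with a median of 874 CPM in WT-HCD and 1585 CPM in WT-NCD. Without batches 2 and 6, slc23a1 was higher on HCD in 6 of 7 batches, by 1.43-fold (exact p = 0.0469), and the fit gave 0.58 (SE 0.29, adjusted p = 0.623) without and 0.52 (SE 0.20, adjusted p = 0.203) with the block. Without batches 2, 4 and 6, it was higher in 5 of 6, by 1.33-fold (exact p = 0.0938), and the fit gave 0.46 (SE 0.33, adjusted p = 0.826) without and 0.42 (SE 0.22, adjusted p = 0.395) with the block. The call of the blocked fit thus ended without those batches. By library totals slc23a1 was higher in 6 of 6 without batches 2, 4 and 6 (exact sign-flip p = 0.03125), so this count too depended on the scaling. The part of intestinal RNA in the diet difference was not tested.

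**Figure D2:**
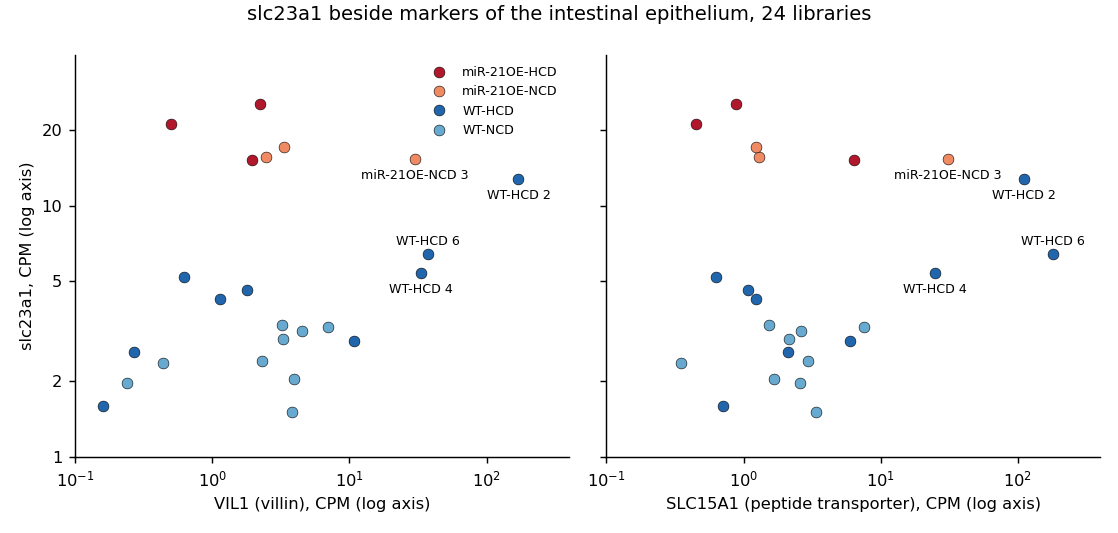
slc23a1 (vertical, CPM, log axis) against the intestinal markers VIL1 (left) and SLC15A1, ENSDARG00000044528 (right; horizontal, CPM, log axes) in all 24 libraries, coloured by group. The miR-21OE libraries lie above 15 CPM of slc23a1 at VIL1 levels of 0.498 to 30.1 CPM, and among WT livers the named WT-HCD libraries 2, 4 and 6 are the highest in slc23a1 and in SLC15A1.

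In the batches that hold both genotypes, whose values entered the choice of the gene, no diet difference of slc23a1 was detected. Without the block, edgeR called 0 of 21660 genes for diet in either genotype there, so the lack of a call says little about slc23a1. In miR-21OE livers the ratio of HCD over NCD was 0.976, 1.48 and 1.37 in batches 7 to 9. The fitted log2 difference was 0.33 (SE 0.28, adjusted p = 1). In WT livers of these batches it was 0.19 (SE 0.29, adjusted p = 1), with ratios of 1.11, 0.915 and 1.38, and turned to -0.12 without WT-HCD 9. The diet difference in miR-21OE livers exceeded that in WT livers by 0.14 on the log2 scale (SE 0.41), a value given without a test because it is also the difference of the contrasts that chose the gene. Its sign turned without WT-HCD 7 (-0.02) or miR-21OE-HCD 2 (-0.049). With 3 batches, an exact test over pairs cannot go below p = 0.25. In order of level, slc23a1 was highest in miR-21OE-HCD, then miR-21OE-NCD, WT-HCD and WT-NCD, and miR-21OE-HCD and miR-21OE-NCD, neighbours in that order, did not differ beyond their spread.

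**Figure D3:**
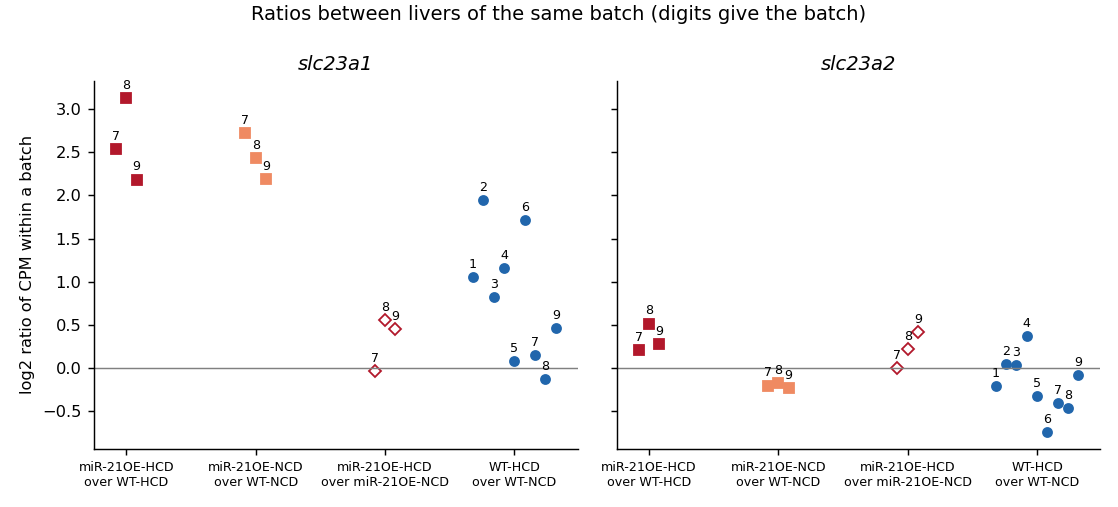
Log2 ratio of CPM between libraries of the same batch for slc23a1 (left) and slc23a2 (right), with the batch number at each point. Squares compare miR-21OE with WT on the same diet, open diamonds (miR-21OE) and filled circles (WT) compare HCD with NCD within a genotype, and the grey line marks no difference. The 6 genotype ratios of slc23a1 lie between 2.18 and 3.13, and those of slc23a2 between -0.23 and 0.52.

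slc23a2 did not separate the genotypes. It had 85.8, 89.8 and 55.1 CPM in miR-21OE-HCD and 85.4, 76.7 and 41.1 CPM in miR-21OE-NCD. The WT-HCD livers of batches 7 to 9 had 74.0, 62.7 and 45.3 CPM, and the WT-NCD livers had 98.2, 86.2 and 48.0 CPM. The groups overlapped, and batch 9 was the lowest in all 4. Between genotypes the log2 difference was 0.32 (SE 0.34, adjusted p = 1) on HCD, with miR-21OE higher in 3 of 3 batches. On NCD it was -0.21 (SE 0.34, adjusted p = 1). The log2 ratios within batches 7 to 9 were -0.20, -0.17 and -0.23, so miR-21OE was lower in 3 of 3. By library totals without a scaling factor they were -0.004, 0.11 and -0.21, so this count depended on the scaling. Without miR-21OE-NCD 3 the fitted difference turned to 0.038. That fit had no batch term, and the library left out belonged to batch 9. No change of slc23a2 was detected in either contrast, where edgeR called 0.00462% of 21660 genes on HCD and 0.0277% on NCD.

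The diet did not change slc23a2 detectably either. In WT livers of all 9 batches it had a lowest, median and highest value of 45.3, 65.7 and 120 CPM on HCD and of 47.3, 74.1 and 150 CPM on NCD. It was higher on HCD in 3 of 9 batches, and the mean log2 ratio was -0.19 ± 0.33 (SD, n = 9; exact sign-flip p = 0.125). The fit gave -0.25 (SE 0.24, adjusted p = 0.723), and library totals without a scaling factor turned the sign, to 0.17. In batches 7 to 9 the diet difference was 0.16 (SE 0.34, adjusted p = 1) in miR-21OE livers and -0.36 (SE 0.34, adjusted p = 1) in WT livers. That of miR-21OE livers turned to -0.082 without miR-21OE-NCD 3, a library of the low batch 9, in a fit without a batch term. The interaction was 0.52 (SE 0.48, unadjusted p = 0.2997, adjusted p = 1). For these diet contrasts of batches 7 to 9 and the interaction, edgeR called 0 of 21660 genes. Libraries of the same batch lay near each other at both ends of the range. Batch 5 had the highest values, 120 CPM in WT-HCD and 150 CPM in WT-NCD, and batch 2 had 49.1 and 47.3 CPM, in the same order.

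Set against each other within a library, the transporters shifted in their share of counts. slc23a1 took 15.1%, 22.1% and 27.7% of the counts of both genes in miR-21OE-HCD, and 15.5%, 18.3% and 27.3% in miR-21OE-NCD. In WT-HCD of the same batches it took 3.43%, 4.42% and 9.29%, and in WT-NCD 2.36%, 3.55% and 6.56%. These shares restate the difference by which slc23a1 was chosen and are a description. The 95% Wilson interval, which covers counting error only, was 13.7% to 16.6% for miR-21OE-HCD 1, the lowest of the miR-21OE libraries, and 7.82% to 11.0% for WT-HCD 9. Outside these batches WT-HCD 2, one of the libraries with intestinal markers, reached 20.6%. Transcript lengths were not used, so the shares compare libraries and do not rank the genes by level.

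The other genes of the family had few counts in most libraries. slc23a3, a member with no known vitamin C transport, had 0.316 to 1.70 CPM in miR-21OE-HCD and 1.11 to 2.56 CPM in miR-21OE-NCD, against 0.584 to 5.66 CPM in WT-HCD and 0.379 to 2.78 CPM in WT-NCD. slc23a4, which carries nucleobases in rodents, had 0 to 4 counts in miR-21OE-HCD and 0 to 19 in miR-21OE-NCD. In WT-HCD it had 0 to 150 counts and in WT-NCD 0 to 8. Its highest values were 150 counts in WT-HCD 6, 69 in WT-HCD 2 and 22 in WT-HCD 1. In neither miR-21OE contrast did slc23a3 or slc23a4 pass (adjusted p = 1 for both genes on both diets).

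The other ascorbate genes were read from 6 lists: the SLC23 family, glucose transporters of dehydroascorbate, ascorbate recycling, ascorbate-dependent hydroxylases, the hexuronate pathway upstream of ascorbate, and reported regulators of SVCT1 in mammals. Beside slc23a1 they held 65 IDs, slc23a2 among them, of which 62 passed the count filter in batches 7 to 9. In both miR-21OE contrasts 0 of 62 passed in edgeR, without and with the block, while 8 had an unadjusted p under 0.05 on HCD and 3 on NCD. Without the block 0.00462% of all genes passed on HCD and 0.0277% on NCD, and with the block 0.245% and 0.268%. DESeq2 called 1 of the 62 on HCD and 0 on NCD, where it called 0.38% and 0.491% of all genes. With the block it called 3 on each diet, and 1.57% of all genes on HCD and 1.92% on NCD. The median log2 difference of the 62 genes was 0.01 on HCD and -0.03 on NCD, beside -0.03 and 0.01 for all genes tested. Of the lists, the hydroxylases had the highest median on HCD, 0.55 over 22 genes, of which 14 had a positive difference, against 0.08 on NCD. In the diet contrasts of batches 7 to 9 and in the interaction, edgeR called 0 of 62, where it called 0 of all 21660 genes. An unadjusted p under 0.05 was found for 3 of 62 (WT livers), 5 of 62 (miR-21OE livers) and 3 of 62 (interaction). Of all 21660 genes, 881, 655 and 348 had such a p, in the same order. DESeq2 called 0 list genes in each of these contrasts, and 0.357% of all genes for diet in WT livers, 0.088% in miR-21OE livers and 0% for the interaction. With the block it called 1 list gene for diet in WT livers, where 0.849% of all genes passed, 0 in miR-21OE livers (0.24%) and 0 for the interaction (0.0369%). edgeR with the block called 0.0831% of all genes for diet in WT livers and 0.00923% in miR-21OE livers, and 0 list genes in both.

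**Figure D4:**
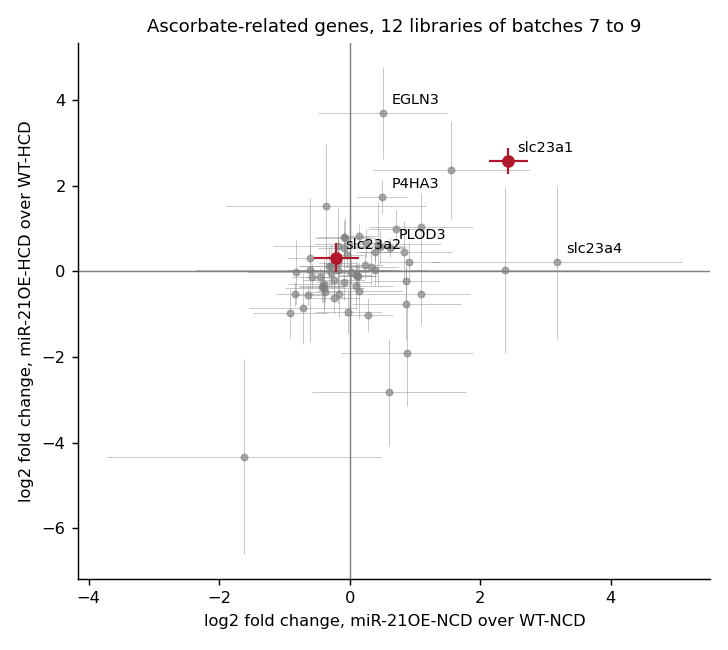
Log2 fold change of miR-21OE over WT for slc23a1, slc23a2 and the other ascorbate genes that passed the count filter, on NCD (horizontal) and on HCD (vertical), from the fit of 12 libraries. Bars are SE, red marks slc23a1 (2.43 and 2.57) and slc23a2 (-0.21 and 0.32), and wide bars mark genes of few counts such as slc23a4.

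P4HA3, a catalytic subunit of collagen prolyl 4-hydroxylase, was the gene DESeq2 called on HCD. It had 73.1, 72.4 and 130 CPM in miR-21OE-HCD, against 14.1, 25.1 and 41.0 CPM in WT-HCD of the same batches, with no overlap. The log2 difference was 1.75 (SE 0.39, adjusted p = 0.375 in edgeR, 0.0521 with the block and 0.00769 in DESeq2). On NCD it had 56.2, 58.4 and 78.4 CPM in miR-21OE livers, against 52.2, 50.8 and 33.4 CPM in WT livers (0.50, SE 0.38, adjusted p = 1). PLOD3, a lysyl hydroxylase and glycosyltransferase of collagen, had 128, 143 and 164 CPM in miR-21OE-HCD and 135, 139 and 162 CPM in miR-21OE-NCD. In WT livers of these batches it had 96.2, 109 and 85.9 CPM on HCD and 82.0, 88.8 and 113 CPM on NCD. Its groups did not overlap, yet the differences of 0.55 (SE 0.22) and 0.62 (SE 0.22) did not pass in edgeR (adjusted p = 0.956 and 0.831, with the block 0.423 and 0.279). DESeq2 with the block gave 0.159 on HCD and 0.0496 on NCD. PLOD3, EGLN3 and akr1a1a, an aldehyde reductase, are named because of their values. EGLN3, an oxygen-sensing prolyl hydroxylase, had 1.83, 33.8 and 1.45 CPM in miR-21OE-HCD, against 0.542, 1.49 and 0.812 CPM in WT-HCD of the same batches, so that its log2 difference of 3.69 (SE 1.08, adjusted p = 0.780, in DESeq2 with the block 0.00483) rested on miR-21OE-HCD 2. In miR-21OE-HCD akr1a1a had 26.5, 36.9 and 39.2 CPM, against 6.65, 26.7 and 17.4 CPM in WT-HCD (0.99, SE 0.44, adjusted p = 0.9901, with the block 0.136, in DESeq2 with the block 0.00838). SLC2A2, the main glucose transporter of hepatocytes, had 281, 203 and 238 CPM in miR-21OE-HCD, against 220, 330 and 471 CPM in WT-HCD (-0.54, SE 0.28, adjusted p = 0.998). On NCD it had 224, 268 and 260 CPM in miR-21OE livers, against 364, 490 and 488 CPM in WT livers, without overlap (-0.84, SE 0.28, adjusted p = 0.802, with the block 0.263, in DESeq2 with the block 0.0375). The third gene that DESeq2 with the block called on NCD, beside PLOD3 and SLC2A2, was BBOX1 of carnitine synthesis. It had 30.4, 160 and 100.1 CPM in miR-21OE-NCD, against 102, 226 and 187 CPM in WT-NCD, lower in 3 of 3 batches with overlapping groups. Its log2 difference was -0.82 (SE 0.75, adjusted p = 1) without the block and -1.12 (SE 0.29, adjusted p = 0.171, in DESeq2 0.0113) with it.

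SLC2A2, described above, was the most abundant gene of its list. Among abundant members of the other lists, no change between genotypes was detected in the 6 named here: hpda, PAM, grhprb, UGP2, TXNRD3 and MIOX. hpda, which degrades tyrosine by an ascorbate-assisted dioxygenase, differed by -0.13 (SE 0.21) on HCD and -0.45 (SE 0.21) on NCD. PAM, the copper enzyme that amidates peptides, differed by -0.30 (SE 0.57) and -0.39 (SE 0.57), in the same order. grhprb, a glyoxylate reductase whose mammalian form has been reported to bind SVCT1, differed by 0.19 (SE 0.29) and -0.18 (SE 0.29). UGP2 (ENSDARG00000005578), which makes UDP-glucose, differed by -0.55 (SE 0.23) and -0.65 (SE 0.23). TXNRD3, a thioredoxin reductase, differed by -0.03 and -0.28 (SE 0.30 each), and MIOX, which opens the inositol ring, by 0.03 and -0.19 (SE 0.77 each). None of these passed (adjusted p of 0.838 or higher).

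In WT livers of 9 batches the diet changed 3 of 63 list genes, 2 up and 1 down (edgeR, adjusted p under 0.05; 1.15% of all genes passed). CYB561, an ascorbate-dependent transmembrane electron carrier, rose by 1.64 on the log2 scale (SE 0.31, adjusted p = 0.0158), with a lowest, median and highest level of 2.29, 4.29 and 10.8 CPM on HCD and of 1.158, 1.81 and 2.55 CPM on NCD. It was higher on HCD in 9 of 9 batches. gsto2, a glutathione transferase that can reduce dehydroascorbate, rose by 1.47 (SE 0.34, adjusted p = 0.0381), with 2.40, 4.49 and 21.3 CPM on HCD and 1.84, 2.69 and 3.23 CPM on NCD. The highest gsto2 values, 21.3 and 9.75 CPM, came from WT-HCD 2 and WT-HCD 6, the libraries with intestinal markers. TET1 fell by 0.83 (SE 0.16, adjusted p = 0.0185), with 17.05, 19.8 and 30.98 CPM on HCD and 24.7, 35.9 and 56.5 CPM on NCD, and was lower in 9 of 9 batches. Markers of cell types differed with the diet in the same livers. The hepatocyte sum was lower on HCD in 8 of 9 batches, with a median of 43416 CPM on HCD and 56379 CPM on NCD. The biliary sum (1790 and 1176 CPM) and the neutrophil sum (6.93 and 0.874 CPM) were higher in 9 of 9, and the macrophage sum (130 and 53.7 CPM) in 8 of 9, medians in the same order. Most of the biliary sum came from ANXA4 and krt18a.1, with medians of 783 and 721 CPM over 24 libraries. The neutrophil sum rested on 2 IDs, lyz and MMP9, since 3 of 5 listed symbols were not matched. The part of these cell types in the diet differences was not tested. Without batches 2 and 6, or without batches 2, 4 and 6, edgeR without the block called 0 list genes, and with the block 3 and 1. The shares of all genes that passed in these smaller fits are not given here, so nothing is read from the lower counts.

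With the batch as a block, 12 of 63 list genes passed, 4 up and 8 down, where 7.47% of all genes passed. DESeq2 without the block called 5 of 63, where 4.11% of all genes passed. With the block it called 17, where 13.2% of all genes passed. The genes that rose were CYB561, gsto2, slc2a3b (1.80, SE 0.37, adjusted p = 0.0125), a glucose transporter of few counts, at a median of 0.851 CPM on HCD and 0.298 CPM on NCD, and p4ha1a (0.82, SE 0.21, adjusted p = 0.0334), a prolyl hydroxylase higher on HCD in 9 of 9 batches. Those that fell included TET1, the oxygen sensor EGLN2 and P4HA3 (-1.44, SE 0.34, adjusted p = 0.0256), then BBOX1 (-1.25, SE 0.32, adjusted p = 0.0322), RGN (-0.93, SE 0.24, adjusted p = 0.0325), cyb5b and SLC2A2 (-0.87, SE 0.24, adjusted p = 0.0479). BBOX1, the last enzyme of carnitine synthesis, had a median of 150 CPM on HCD and 226 CPM on NCD. RGN, a gluconolactonase that acts just before the step of ascorbate synthesis missing in fish, had medians of 51.3 and 74.3 CPM, and SLC2A2 of 252 and 385 CPM, in the same order, in livers whose hepatocyte marker sum was lower as well. BBOX1, RGN, SLC2A2, cyb5b and TET1 were lower on HCD in 9 of 9 batches, and EGLN2 and P4HA3 in 8 of 9. The share of all genes with such counts of batches is not given here. Since the genes were named for passing in the same libraries, these counts, like those of CYB561 and p4ha1a, are a description.

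Genes whose levels followed the transporters were sought among those with a mean of at least 50 counts, by Pearson's r of log2 CPM. The points share batches and groups, so r is a description. Over the 18 WT libraries the genes most like slc23a1 were SLC15A1 (ENSDARG00000100315, r = 0.83), si:dkey-23k10.5 (0.81), cldn15la (0.81), COTL1 (0.80) and zgc:165423 (0.80). SLC15A1 is the peptide transporter of the gut epithelium and cldn15la a claudin of the zebrafish intestine. Over all 24 libraries the leading genes were others, tmem41aa, MIR30E, KTN1, TSC1 and DLAT, with r of 0.81 each. Over the 12 libraries of batches 7 to 9, with batch means taken out, GRAMD4, SLC16A6, DLAT, ubap2b and TXNDC12 came first, with r of 0.97 to 0.98. There 4.56% of the 11696 genes compared had r above 0.8 with slc23a1. The comparisons over 24 and over 12 libraries hold the genotype difference by which slc23a1 was chosen, and taking out batch means leaves it in. Their r values restate that difference in part.

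The genes most like slc23a2 were BRAP (0.89), E4F1, hipk1b, KCTD10 and dlgap4a (0.86 each) over 24 libraries. Over the WT libraries they were dlgap4a (0.90), BRAP, NRBF2, MAPK8 and hipk1b (0.89 each). With batch means taken out, usp2b (0.94), srrm2, SLC25A25, hipk1b and mtus1b came first. hipk1b, which codes for a nuclear kinase, was named in all 3 comparisons. None of the genes named for slc23a1 was named for slc23a2. Between the transporters themselves r was -0.61 over WT livers, -0.30 over all livers and 0.27 within batches 7 to 9.

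Of 20 neighbours looked up, 5 on each side of both transporters, none of those that could be tested passed between genotypes. In these contrasts edgeR called 0.00462% of all genes on HCD and 0.0277% on NCD, and 0.245% and 0.268% with the block. With shares this low, nothing is read from the lack of calls. In the gene order of a RefSeq table, slc23a1 lies on chromosome 21 between CCNJL and PFDN1, and slc23a2 on chromosome 8 next to kcnip3a. CCNJL, a cyclin-like gene, differed by 0.23 (SE 0.33) on HCD and 0.54 (SE 0.33) on NCD between miR-21OE and WT livers, and PFDN1, a prefoldin subunit, by 0.18 (SE 0.27) and 0.35 (SE 0.27). Farther out, TTC1, PWWP2A and hnrnph1l lay between -0.06 and 0.22 in both contrasts. dnajc18, a J-domain cochaperone, was -0.54 (SE 0.22) on HCD and -0.80 (SE 0.23) on NCD. Near slc23a2, RFLNA lay at 0.51 and 1.12 (SE 0.45 and 0.46). The adjusted p of the neighbours named was 0.602 or higher without the block and 0.223 or higher with it. FABP6 and si:ch73-190f9.4 near slc23a1, and kcnip3a, prnpa, CRYBB2 and zgc:194007 near slc23a2, were not tested, and hbegfb, brd8a, rassf2a and kazald3 were not matched. Neither gene directly beside slc23a2 was therefore tested.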

How the data were processed

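RNA of pooled livers was sequenced as directional, ribosome-depleted libraries. Per the submitters' processing notes, STAR 2.7.9a, cutadapt 1.16, featureCounts 1.6.3 and genome build GRCz11 were used, and the deposited file holds read counts by gene, which the authors left without normalization. The strand setting of the counting is not given in the sources used here, so overlapping and antisense genes are uncertain. Symbols came from a gene table, matched to 29201 of 32520 IDs, and neighbours from RefSeq (GRCz12tu).

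Counts were tested with edgeR 4.0.16 (quasi-likelihood F-test, TMM, two-sided) in R 4.3.3, with genes under 10 counts in total left out, Benjamini-Hochberg adjustment over all genes and a threshold of 0.05. SE is the log2 difference divided by the square root of F. Batches 7 to 9 (12 libraries, 21660 genes) and the WT libraries (18, 23934 genes) were fitted separately, without a batch term. The study's methods name DESeq2 and state no model terms. The labels mark the batch, and libraries of the same batch deviated together (r of at least 0.141 in all 18 pairs and at least 0.357 in all 9 WT pairs), so batch pairs the libraries and was a block in the alternative. Wilson intervals (95%) cover counting error only. Alternatives were DESeq2 1.42.0 without and with the block, RLE factors, library totals, other count filters, fewer libraries and leave-one-out. Leaving out batches 2 and 6 or batches 2, 4 and 6, batches 1 to 6 with the block, the block with library totals and the block without each batch were added after values were seen. The methods were tested on simulated data. Named genes were the SLC23 genes, list genes passing without or with the block, the 2 most abundant members per list, the 5 genes most alike and 5 neighbours each side, and any other is said to be named for its values. A few genes that this rule names are not reported here. The genes and lists were chosen with earlier results of these data known. Whether clutches and batches coincide is not stated, so p-values measure the spread between libraries.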

Additional observations from a re-analysis of the deposited data

Results flagged for a closer look

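In 4 groups of 9 WT libraries (each transporter on each diet), single libraries were set against their group, a comparison that flags about 1 in 20 groups by chance. The slc23a1 level of WT-HCD 2, 12.8 CPM, stood far above the other 8 WT-HCD libraries, with a gap of 0.567 of the whole range. That library also had the highest VIL1 of all 24. The slc23a2 level of WT-HCD 5, 120 CPM, stood apart likewise (gap 0.589 of the range), and its partner of the same batch, WT-NCD 5, had the highest slc23a2 level of all, 150 CPM.

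For slc23a2 the diet response pointed in opposite directions in the genotypes. It was higher on HCD in all 3 miR-21OE pairs, by 0.01, 0.23 and 0.42 on the log2 scale, and lower in all 3 WT pairs, by -0.41, -0.46 and -0.08. The difference averaged 0.54 and did not pass when tested itself (edgeR interaction adjusted p = 1, unadjusted p = 0.2997, with the block 0.0584). By library totals without a scaling factor, the WT ratio of batch 9 turned to 0.04, so the opposite directions depended on the scaling. The share of all genes with such a pattern is not given here.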

How the results depend on the processing

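The slc23a1 difference between miR-21OE and WT livers stayed positive under the alternatives run, from 2.57 to 2.64 on HCD and from 2.42 to 2.62 on NCD with all libraries of a contrast, and from 2.38 to 2.88 and from 2.27 to 2.53 when single libraries were left out. The diet difference of slc23a1 in WT livers of 9 batches passed with the batch as a replicate block (0.82), in DESeq2 with the block (0.79, adjusted p = 0.0111), with library totals (1.45), and with the block and library totals (1.165). In batches 1 to 6 alone it did not pass without the block, where 0.145% of all genes passed. With the block, a fit added after values were seen, it passed there (1.18, edgeR adjusted p = 0.0410), as did 3.39% of all genes. In the 9 batches, leaving out single libraries without the block gave 0.68 to 1.11 (adjusted p of 0.0673 to 0.249). With the block, leaving out single batches gave 0.67 to 0.94, and it passed without batch 5 (0.90), batch 8 (0.94) or batch 9 (0.87). Leaving out single libraries gave -0.12 to 0.35 in batches 7 to 9 and -0.049 to 0.45 for the interaction (-0.049 without miR-21OE-HCD 2, -0.02 without WT-HCD 7). For slc23a2, leaving out single libraries in the fit without a batch term gave -0.082 to 0.36 for diet in miR-21OE livers. For miR-21OE against WT on NCD it gave -0.45 to 0.038. The values -0.082 and 0.038 were those without miR-21OE-NCD 3, a library of batch 9, where slc23a2 was lowest in every group of batches 7 to 9. Library totals turned the WT diet difference of slc23a2 to 0.17, or 0.16 with the block. The blocked fit changed no other call of either transporter.

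The count of ascorbate genes called for diet in 9 WT batches, 3 in edgeR, was 12 with the block, 5 in DESeq2, 17 in DESeq2 with the block, 20 with the block and library totals, 0 in batches 1 to 6, 0 without batches 2 and 6 or without batches 2, 4 and 6, and 1 without batches 2, 4 and 6 with the block. Leaving out single batches with the block gave 5 to 15, and single libraries without it 2 to 4. In batches 1 to 6, without the block, 0.145% of all genes passed. Where no share of all genes is given for a fit, nothing is read from its count. For miR-21OE-HCD against WT-HCD the count was 1 in DESeq2, 3 in DESeq2 with the block and 1 with the block and library totals. DESeq2 with the block gave 3 for miR-21OE-NCD against WT-NCD and 1 for diet in WT livers of batches 7 to 9. The causes were not tested.

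With 3 libraries per miR-21OE group, exact tests cannot pass, and slc23a4 counts in batches 7 to 9 are too low to size a change.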
